A study of Rattus norvegicus with 53 samples.

Results

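Of 51 whole eyes of heterogeneous stock (HS) rats, 3 held almost no lens crystallin RNA, and these 3 eyes are described here against the other 48. The eyes were chosen by a measured level: with each eye scaled to a total of 1000000 (counts per 1000000, CPM), an eye was placed in the low-crystallin group when log2(CPM + 1) of ENSRNOG00000047175, an abundant lens crystallin row of the table, was below 8. All eyes came from HS rats, an outbred population, with 1 eye from each rat. Each eye was frozen, thawed and cleared of its extraocular muscles, and its polyA RNA was sequenced as a bulk sample. Some of the HS rats in the authors' wider study had self-administered nicotine in a behavioural project. The sources used here do not say which of the 51 eyes, if any, came from such rats. Nor do they give the age and sex behind each eye, so the groups differ by no labelled treatment. The 3 low-crystallin eyes are numbered 6, 7 and 44 in the order of the series' sample list. The numbers serve as names only.

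The lens is a transparent tissue built of an anterior epithelium and of elongated fibre cells that lose their nuclei and organelles as they mature. Fibre cells are filled with crystallins, the structural proteins that give the lens its refractive power. Alpha crystallins are related to small heat shock proteins and act as chaperones, whereas beta and gamma crystallins form another protein family, and several of the gamma genes lie in a cluster. In an RNA sample of a whole eye, crystallin transcripts are a mark of the lens, next to the RNA of retina, pigment epithelium, cornea, iris, sclera and blood. In such a bulk sample, fewer cells of a type and less RNA per cell cannot be told apart.

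The row that defined the groups, ENSRNOG00000047175, starts at position 10438444 of chromosome 20 in Rnor_6.0. It stood at 24.04 CPM in eye 6, 44.7 CPM in eye 7 and 8.33 CPM in eye 44. In the other 48 eyes it ranged from 12469 to 64118 CPM with a median of 40205 CPM. The low-crystallin eyes thus held 0.0598%, 0.111% and 0.0207% of the other eyes' median. On the scale of the rule, the highest low-crystallin eye was at 5.51 and the lowest other eye at 13.61, with the next other eye at 14.31, so that no eye lay near the threshold of 8. Some counts of this row remained, with 287, 683 and 134 expected counts in eyes 6, 7 and 44. Whether these reads arose in the eyes themselves was not tested.

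A pair of further lens rows, which the rule did not use, showed the same separation. ENSRNOG00000008700, which starts at 65161152 on chromosome 10, was at 6.78, 9.36 and 1.99 CPM in eyes 6, 7 and 44, and between 3565 and 26806 CPM in the others, with a median of 13649 CPM. The level of ENSRNOG00000050023, which starts at 49578633 on chromosome 12, was 7.71, 8.71 and 1.31 CPM, against 3744 to 17885 CPM and a median of 9632 CPM. In each of the 3 rows eye 44 was lowest and eye 7 highest, and the groups did not overlap. In what was left, the ratio of the first to the second row was 3.54, 4.78 and 4.19 in eyes 6, 7 and 44. It lay inside the other eyes' range of 1.36 to 10.6. The ratio of the first to the third row was 3.12, 5.14 and 6.38, also inside the other eyes' range of 2.45 to 8.59. Both ranges are wide, so they do not show that the rows kept their proportions. The levels of the 3 rows describe the separation, since rows measured in the same libraries as the rule give no independent test of it.

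**Figure D1:**
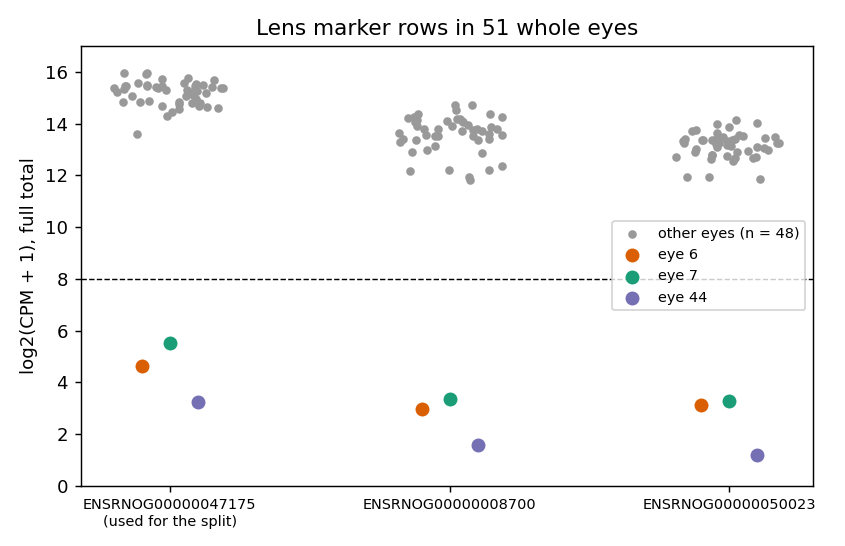
Level of the 3 lens marker rows in 51 eyes, as log2(CPM + 1) on the full total. Grey points are the 48 other eyes, coloured points the 3 low-crystallin eyes, and the dashed line is the threshold of 8, which was applied to the first row. The first row's values are at most 5.51 in the low-crystallin eyes and at least 13.61 in the others.

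The 3 rows together took 0.00385%, 0.00628% and 0.00116% of all counts in eyes 6, 7 and 44, but 2.11% to 10.03% in the other eyes, with a median of 6.30%. Since every other gene's share of the total moves when these rows leave it, the eyes were compared after the 3 rows had been left out of each total. Genes with a mean of at least 1 CPM over the 51 eyes were kept, which left 14125 genes. The eyes had been grouped on their own RNA level, so the difference between the groups carries no p-value. A gene was counted as separated when all 3 low-crystallin eyes lay below the lowest, or above the highest, of the other 48 eyes.

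With all 3 eyes counted, most separated genes lay on the low side. Of the 14125 genes, 151 (1.07%) were below every other eye and 5 (0.0354%) were above. This balance rested on eye 6, since 206 genes were below and 276 above without it. The median of the 14125 genes' log2 differences between the medians of the low-crystallin and the other eyes was 0.09, and that of the 151 genes was -1.89. The difference was under -5 in 26 of the 151 genes, from -5 to -2 in 49, from -2 to -1 in 54 and closer to 0 in 22. With the crystallin rows kept in the total, 140 genes lay below and 23 above, and the median difference of all genes was 0.17. Of the 386 genes with a log2 difference of -1 or lower, 129 were below every other eye, whereas of the 265 genes with a difference of at least 1, only 1 was above every other eye.

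**Figure D2:**
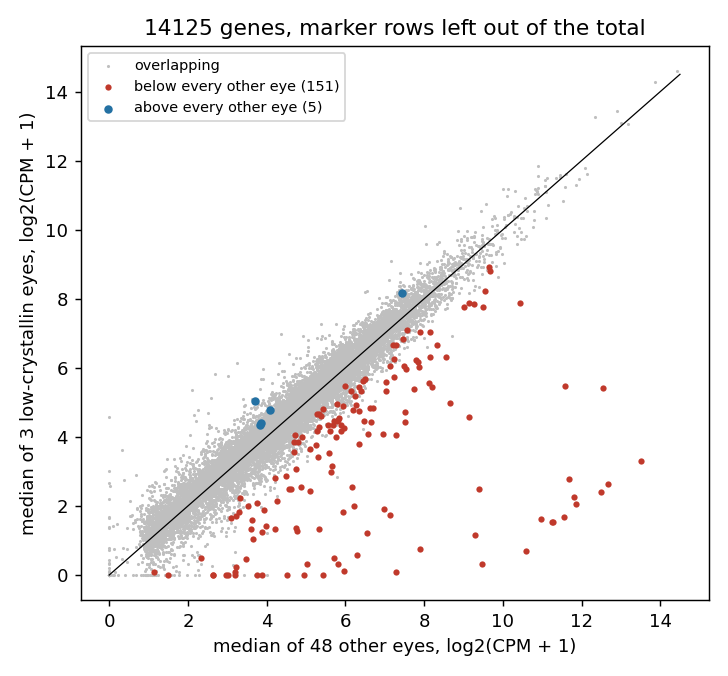
Median level of 14125 genes in the 3 low-crystallin eyes against the 48 other eyes, both as log2(CPM + 1) with the 3 marker rows left out of the total. The black line marks equal levels, the 151 red points are genes below every other eye and reach far from the line, and the 5 blue points are genes above every other eye and stay close to it.

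The most abundant RNA that was lost came from 17 rows, the 3 markers among them, each with a mean of at least 1000 CPM in the other eyes and under an eighth of it in every low-crystallin eye. They took 3.83% to 20.7% of the total in the other eyes, with a median of 11.6%, and 0.0162%, 0.0243% and 0.0109% in eyes 6, 7 and 44. The table gives rows as Ensembl identifiers without symbols, and no source used here names these 17, so they are given by position. By chromosome, 14 of the 17 lay on the 7 chromosomes that carry the 16 alpha, beta and gamma crystallin genes of the RefSeq annotation (assembly GRCr8), which also held 32.5% of the compared genes. The 14 include the 3 markers, which were taken as lens rows beforehand, and several of the rows are neighbours, so they are not separate cases. This comparison of chromosomes tests nothing and assigns no name to a row.

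Chromosomes 9 and 12 each held 5 of the 17 rows, and some of these lay side by side. On chromosome 12, the row starting at 50407843 was at 8.80, 8.77 and 2.74 CPM in eyes 6, 7 and 44, and ranged from 3908 to 23374 CPM elsewhere, with a median of 11675 CPM. It had the widest gap of the 151 genes, with a log2 difference of 8.64 between its highest low-crystallin eye and its lowest other eye. Its neighbour, which starts 3293 bp away at 50404550, was at 3.77, 6.09 and 0.932 CPM against 803 to 8347 CPM. A further row, at 49565992, lay 12641 bp from the marker of chromosome 12 and was at 1.93, 2.03 and 0.373 CPM against 706 to 7188 CPM.

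On chromosome 9, the rows at 71778323, 71788281 and 71798265 followed each other at distances of 9958 and 9984 bp. They were the abundant rows that differed most among the other eyes themselves. The first was at 1.26, 5.76 and 1.18 CPM in eyes 6, 7 and 44, and ran from 11.9 to 11315 CPM in the other eyes, with a median of 632 CPM. The second was at 1.93, 3.14 and 0.808 CPM against 13.005 to 9758 CPM, and the third at 3.18, 5.37 and 0.249 CPM against 69.9 to 10546 CPM. The highest other eye exceeded the lowest 952-fold, 750-fold and 151-fold in these rows, as compared to 3.65-fold and 5.22-fold in the rows of the same chromosome at 37462693 and 82154266. Whether reads were shared between near-identical copies in this stretch was not tested, so the split of counts between the 3 rows is uncertain.

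What was left of the 17 rows differed between the 3 eyes and between rows. As a percent of the other eyes' median, the median of the 17 rows was 0.0795% in eye 6, 0.104% in eye 7 and 0.0234% in eye 44. The row at 93985378 on chromosome 2 kept most, with 1.40%, 1.79% and 1.40%, and the row at 55178289 on chromosome 8 followed with 0.686%, 1.12% and 0.611%. In absolute terms the row of chromosome 2 was at 43.1, 55.1 and 43.1 CPM, against 1101 to 7402 CPM in the other eyes. The 3 eyes were therefore close to each other in the rows of chromosomes 2 and 8, and further apart in most of the others. The row at 71798265 on chromosome 9, for example, was at 0.0854%, 0.144% and 0.00667% in eyes 6, 7 and 44.

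**Figure D3:**
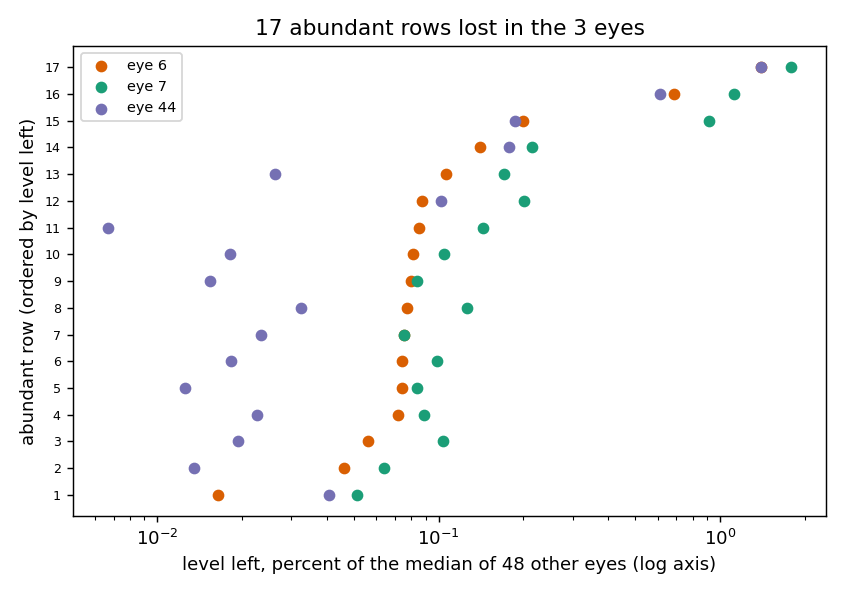
Level left of the 17 abundant rows in each low-crystallin eye, as a percent of the median of the 48 other eyes on a log axis. Rows are ordered from the least to the most left, from 0.00667% in eye 44 to 1.79% in eye 7, and eye 44 lies lowest in most rows.

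Beyond these rows, 137 of the 151 genes were less abundant or less reduced, with medians in the other eyes from 1.21 to 1383 CPM and log2 differences from -9.14 to -0.47. The most reduced of them, at 98501249 on chromosome 1, was at 0.168, 0.589 and 0.249 CPM against 260 to 1233 CPM. Among the 151 genes, 13 had at most 3 counts in each low-crystallin eye and 5 had none in any. Where none were counted, up to 3 counts remain possible, and 3 counts stand at 0.251, 0.196 and 0.186 CPM in eyes 6, 7 and 44, for counting error only. Measured against the highest of these floors, the 5 genes were from at least 7.28-fold to at least 120-fold lower than the other eyes' median. The 151 genes lay on 20 chromosomes, and 1 pair of neighbouring rows on chromosome 4 had identical values.

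Of the 715 named genes compared, 7 were among the 151, a share near the 1.07% of all genes. These 7 are named by their start positions, and they were picked out after their values had been seen. The largest difference among them was that of Sh3bgr, which encodes a protein rich in glutamic acid with an SH3-binding motif. It was at 4.94, 7.85 and 11.7 CPM in eyes 6, 7 and 44, against 15.1 to 162 CPM in the others, with a median of 49.98 CPM (log2 difference -2.53). Sfrp1, a secreted inhibitor of Wnt signalling, was at 58.9, 81.1 and 74.6 CPM against 113 to 362 CPM, with a median of 220 CPM (-1.55). Dapl1 was at 52.4, 67.3 and 34.6 CPM against 85.6 to 221 CPM, with a median of 150 CPM (-1.50). The group medians differed at least 71.3-fold in the abundant rows and 6.36-fold in Sh3bgr. The abundant rows were chosen for a large drop, so this difference was partly set by their definition.

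The other named genes of the 151 differed less. Gpd1, the cytosolic glycerol-3-phosphate dehydrogenase, was at 12.0, 21.2 and 26.1 CPM against 27.9 to 93.2 CPM, and the glycogen phosphorylase gene Pygl at 65.8, 68.1 and 58.7 CPM against 77.7 to 181 CPM. Ndrg1, which responds to low oxygen and stress, was the most abundant, at 317, 300 and 247 CPM against 457 to 1010 CPM. The groups came close in Gpd1, where eye 44 lay 0.09 on the log2 scale below the lowest other eye, and were further apart in Ndrg1, by 0.53. Klhl14, a member of the kelch-like family, was at 2.52, 1.89 and 3.19 CPM against 4.79 to 14.2 CPM.

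**Figure D4:**
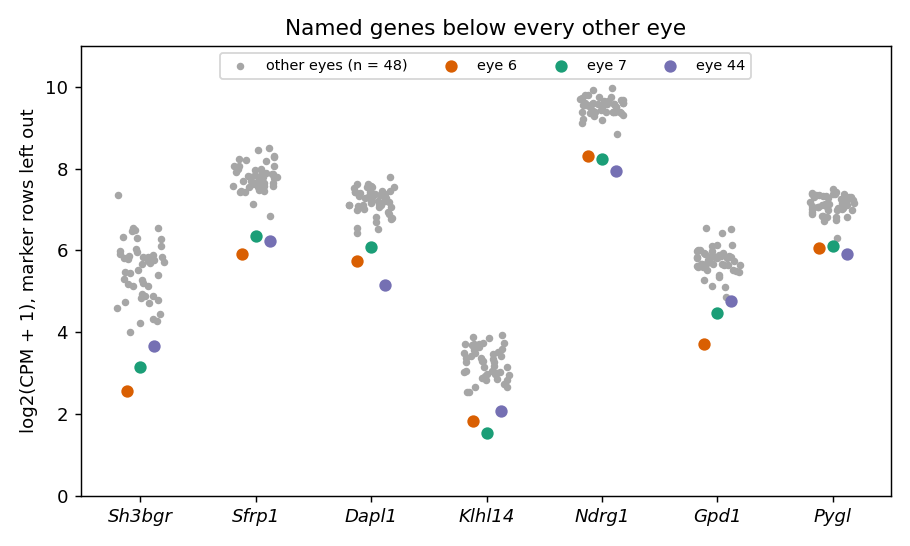
Level of the 7 named genes below every other eye, as log2(CPM + 1) with the 3 marker rows left out. Grey points are the 48 other eyes and coloured points the 3 low-crystallin eyes, which lie under all grey points in each gene, from a wide gap in Ndrg1 (0.53) to a narrow one in Gpd1 (0.09).

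The 5 genes above every other eye could not be named. The clearest, at 60276794 on chromosome 14, was at 32.1, 31.5 and 35.1 CPM against 5.06 to 21.99 CPM (log2 difference 1.35). The other 4 had log2 differences from 0.51 to 0.73, and in a pair of them the lowest low-crystallin eye passed the highest other eye by less than 0.01 on the log2 scale. The count above depended on single eyes. Next to the 276 without eye 6, it was 37 without eye 7 and 13 without eye 44, with 214 and 169 genes below. Without the relabelled eyes, eye 44 among them, 16 genes were above and 179 below, and against only the other eyes with the most common tag prefix 8 were above and 158 below.

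Whether the 151 genes also vary with crystallin RNA was asked in the 48 other eyes, which span a 5.14-fold range of ENSRNOG00000047175. For each gene the slope of its log2 level on the log2 level of this row was fitted with limma, and the p-values were adjusted over the 14125 genes. At an adjusted p under 0.05, 760 genes (5.38%) had a positive slope and 1262 (8.93%) a negative one. Of the 151 genes, 86 (57.0%) had a positive slope that passed, and 0 had a negative one. A slope above 0 was found in 140 of the 151 genes, or 92.7%, as compared to 38.3% of all genes, and the median slope was 0.29, against -0.06. The slope does not use the 3 low-crystallin eyes. Its predictor, however, is the row that split the eyes, and the 151 genes were chosen partly by their levels in the same 48 eyes. The slopes therefore give no independent test of the separation.

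The 14 abundant rows tested all had positive slopes that passed, from 0.56 to 3.80 with a median of 1.15. A slope of 1 means that a gene's level doubles when the crystallin row doubles. The closest relation was that of the row at 55178289 on chromosome 8 (slope 0.98, SE 0.062, adjusted p = 2.70e-17), and the highest slope that of the row at 71778323 on chromosome 9 (3.80, SE 0.45, adjusted p = 2.39e-08). Without the abundant rows, 72 of the 137 remaining genes (52.6%) passed with a positive slope. Of the 75 genes lower by 2 or more on the log2 scale 48 passed, and of the 76 with a smaller difference 38 passed.

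**Figure D5:**
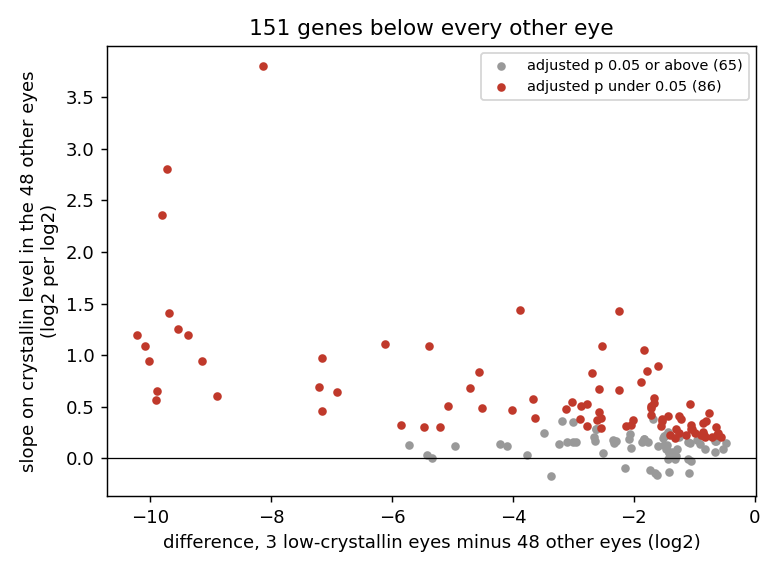
Slope on the crystallin level in the 48 other eyes (log2 per log2) against the log2 difference of the low-crystallin from the other eyes, for 151 genes. Red points are the 86 genes whose slope had an adjusted p under 0.05 and grey points the other 65, and slopes reach from -0.17 to 3.80.

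Of the 7 named genes, 3 had a positive slope that passed. Sh3bgr rose with the crystallin level with a slope of 1.09 (SE 0.16, adjusted p = 2.04e-06). Sfrp1 had a slope of 0.32 (SE 0.088, adjusted p = 0.0120) and Ndrg1 of 0.20 (SE 0.062, adjusted p = 0.0250). The calls of Sfrp1 and Ndrg1 were lost without the 2 eyes farthest from the median crystallin level, with adjusted p-values of 0.191 and 0.297, and that of Ndrg1 also with crystallin rows kept in the total (adjusted p = 0.0865). Dapl1, Klhl14, Gpd1 and Pygl did not pass, with slopes of 0.13, 0.093, 0.019 and 0.15 and adjusted p-values of 0.358, 0.634, 0.925 and 0.146. The 5 genes above every other eye had slopes from -0.24 to -0.014, and 0 of them passed, with 1 at an unadjusted p under 0.05.

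The slopes called over all genes depended on the scaling, and those of the 151 genes less so. With median-of-ratios size factors 1126 slopes were positive and 710 negative, with the 17 abundant rows left out of the total 1271 and 604, and with crystallin rows kept in it 546 and 2326. Among the 151 genes the corresponding counts of positive slopes were 94, 98 and 73, and no negative slope passed in any setting tried. Among the eyes with the most common tag prefix, 89 of the 151 genes passed, and without the relabelled eyes 90. With the mitochondrial share and the total of each eye as covariates 95 passed, and without the 2 eyes farthest from the median crystallin level 59.

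Of the genes that could be named, those with the smallest p of a positive slope after Sh3bgr were Cst3, a secreted inhibitor of cysteine proteases (slope 0.59, adjusted p = 5.45e-05), the peptide hormone gene Gip (0.96, adjusted p = 0.000684), the ATP synthase subunit gene Atp5mc2 (0.40, adjusted p = 0.00177) and Fam220a (0.38, adjusted p = 0.00178). In the low-crystallin eyes these 4 lay within the range of the other eyes. Cst3 was at 800, 994 and 919 CPM against a median of 989 CPM, and Atp5mc2 at 107, 144 and 117 CPM against 109 CPM. Gip was at 1.09, 2.62 and 2.49 CPM against 1.76 CPM, and Fam220a at 16.2, 24.5 and 20.7 CPM against 22.1 CPM. The smallest p of a negative slope belonged to Itprid2 (-0.39, adjusted p = 0.000112), the kinase gene Dyrk2 (-0.52, adjusted p = 0.000913), Cul5, a scaffold of ubiquitin ligases (-0.45, adjusted p = 0.00102), Wdr7 (-0.33, adjusted p = 0.00123) and Pikfyve, a lipid kinase (-0.39, adjusted p = 0.00165). Itprid2 was also high in the low-crystallin eyes, at 114, 107 and 106 CPM against 43.98 to 123 CPM, with 1 other eye above the lowest of them. Cul5, in contrast, was at 94.9, 50.3 and 48.1 CPM against a median of 60.8 CPM.

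The few genes of other eye tissues that could be compared overlapped between the groups. Of 276 genes in 20 lists of eye cell types and RNA quality, 13 could be named. They came from 7 of the lists, and none was from the 2 lens lists. Of the 11 compared, 0 lay below and 0 above every other eye, beside 1.07% and 0.0354% of all genes. At these shares few or none of 11 genes would be separated, so the counts tell nothing particular about them. The rod gene Guca1b, a regulator of guanylate cyclase, was at 605, 769 and 557 CPM against 374 to 969 CPM, with a median of 602 CPM. Among glial genes, glutamine synthetase (Glul) was at 3025, 3117 and 3522 CPM against a median of 3091 CPM, with the groups overlapping. Clu, a secreted chaperone, was at 707, 887 and 596 CPM against 645 to 1327 CPM, with a median of 972 CPM. All 3 low-crystallin eyes thus lay under the median of Clu, and eye 44 under every other eye. S100b, outside the rule for named genes as the third of its list in level, had a log2 difference of 0.17.

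The pigment epithelium gene Serpinf1 was at 2.76, 4.71 and 4.23 CPM against a median of 4.51 CPM. Tyr, which begins melanin synthesis, was at 23.2, 18.9 and 2.18 CPM against 2.09 to 50.96 CPM, and Rab38 at 6.03, 8.90 and 7.02 CPM against a median of 4.86 CPM. The corneal stroma gene Lum was at 10.9, 2.09 and 4.41 CPM against 0.278 to 17.2 CPM, and Fmod at 22.1, 87.6 and 30.03 CPM against 14.9 to 83.7 CPM, so that eye 7 exceeded the other eyes in Fmod alone of these. The macrophage gene Cd68 was at 7.62, 12.0 and 4.54 CPM against 0 to 16.1 CPM, with a median of 2.32 CPM, and beta globin (Hbb) at 4.77, 29.8 and 56.0 CPM against 3.96 to 95.2 CPM. Omd, likewise the third of its list in level, was at 0 in the 3 eyes and reached 2.12 CPM elsewhere, and Hba-a3 was at 0, 0.785 and 1.62 CPM against 0 to 2.31 CPM, both too low to be compared. Since each list rests on 1 to 3 named genes, the tissues as such were not compared.

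The 3 eyes differed from each other in their mitochondrial RNA. Mitochondrial RNA took 8.91% of the remaining counts in eye 6, above every other eye, 0.418% in eye 7, below every other eye, and 2.68% in eye 44, against 0.469% to 6.99% in the 48 others. Of the 15 mitochondrial rows compared, 0 lay below and 0 above the other eyes in all 3, beside 1.07% and 0.0354% of all genes. At these shares few or none of 15 rows would be separated, so the counts tell nothing particular about mitochondrial RNA. Pearson's r of log2 levels across genes was 0.907 between eyes 6 and 7, 0.941 between eyes 6 and 44 and 0.945 between eyes 7 and 44. The median r with the other eyes was 0.931, 0.892 and 0.915 for eyes 6, 7 and 44, as compared to a median of 0.950 and a range of 0.881 to 0.983 among the other eyes. In eyes 7 and 44, r with both fellow low-crystallin eyes was above the median r with the other eyes. In eye 6 this held for eye 44 only. The separated genes were kept in these r, so they give no independent measure of how alike the 3 eyes are. Taken singly, eyes 6, 7 and 44 exceeded all 48 other eyes in 442, 930 and 794 genes and lay below them in 408, 530 and 529. An other eye set against the remaining 47 exceeded them in 11 to 1172 genes, with a median of 172.5, and lay below them in 11 to 1889, with a median of 148, so that the 3 eyes were above both medians and inside both ranges.

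The depth of the 3 eyes, at 11938559, 15278550 and 16086308 expected counts, fell within the other eyes' range of 9109084 to 42146827. The mean log2 total differed by -0.22 (exact permutation test over eyes, two-sided, p = 0.287). Eye 44 was 1 of 11 eyes whose label the authors corrected, so 1 of 3 low-crystallin eyes was relabelled as compared to 10 of 48 others (Fisher's exact test, two-sided, p = 0.526). The most common tag prefix was carried by 1 of 3 and by 38 of 48 eyes (Fisher's exact test, two-sided, p = 0.134). With 3 eyes these tests detect large differences only, and the part of depth or handling in the low crystallin RNA was not tested.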

How the data were processed

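The authors deposited, per gene, RSEM's expected count with 1 added, on the log2 scale. Paired reads of 150 bp were aligned to Rnor_6.0 with STAR in a two-pass run, and eyes were checked against DNA genotypes with GATK ASEReadCounter. The sources used here give neither tool versions nor the annotation. The 2 eyes removed by the authors are not analysed here.

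The log2 was undone, and the estimated counts were scaled to 1000000 per eye without the 3 marker rows and taken as log2(CPM + 1). Symbols were assigned by start position alone, from the lists of expression quantitative trait loci in the paper's tables or within 500 bp of a start given there. The deposited file and the tables used pair no symbol with the remaining rows. The members, lists and rules were chosen with earlier results of these data known. The genes named were the markers, listed genes that are separated or the 2 of highest level per list, the 10 with the widest gap each way, and the 5 of smallest slope p each way. Unnamed genes were given by position, and symbols beyond this rule are said to lie outside it or to be picked afterwards. For slopes, symbols were taken from the named genes alone. The values of 1 gene are not reported here.

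Low-crystallin and other eyes were compared by description, since the eyes were grouped on their own RNA. Slopes were fitted in the 48 other eyes with limma (version 3.58.1, R 4.3.3) under a trended prior variance, with Benjamini-Hochberg adjustment. Totals were compared with an exact permutation test and label shares with Fisher's exact test. The slope fit and the count of separated genes were tested on simulated data. Python 3.11.15 was used for the rest, with matplotlib 3.10.9 for plots, pandas 2.3.3, scipy 1.17.1 and numpy 2.4.6. Each eye is 1 rat, so the p-values of slopes and totals measure the spread between rats. Relatedness among the rats was not modelled. Alternatives changed the scaling, pseudocount, filter, eyes and predictor. Scaling without the 17 abundant rows and covariates in the slope fit were added after seeing the data.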

Additional observations from a re-analysis of the deposited data

How the results depend on the processing

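The number of genes below every other eye stayed within 1.5 times of 151 in every alternative run (137 to 214). Leaving out eyes can only keep or raise this number, so those runs could not have lowered it. The number above moved with the scaling, from 5 to 23 with the full total, 3 without the abundant rows and 2 with median-of-ratios factors. It was 16 without the relabelled eyes, 8 against eyes of the most common tag prefix, and 13 to 276 when 1 low-crystallin eye was left out. Positive slopes numbered 1513 with the mean of the 3 markers as predictor, 423 without the 2 farthest eyes and 1271 without the abundant rows. Negative slopes numbered 2326 with the full total, 710 with median-of-ratios factors, 3151 with the 3 markers, 768 without the 2 farthest eyes, 604 without the abundant rows and 2075 with covariates. The cause of these shifts was not tested. The 2 sets of slopes beyond the planned ones, without the abundant rows and with covariates, were chosen after seeing the data.

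Of the 7 named genes, the groups stayed apart in every alternative in which the gene was compared. This was largely fixed in advance, since only a change of scaling could bring separated groups together. Leaving out eyes, or changing the pseudocount or the filter, could not. The slope of Klhl14 was -0.0015 without the 2 farthest eyes. That of Gpd1 was -0.034 with the full total, -0.022 with the 3 markers, -0.23 without the 2 farthest eyes and -0.023 with covariates, and none of these passed. Dapl1 passed with the 3 markers (adjusted p = 0.0122), and Pygl with the 3 markers, in eyes of the most common prefix and without the abundant rows (0.0396, 0.0248 and 0.0361). No paired analysis was possible because the eyes come from different rats and their numbers are names only. Depth limits the 13 genes with at most 3 counts in each low-crystallin eye, whose differences are bounds only where all 3 eyes were at 0.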

Other observations

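Of the 715 named genes compared, 0 lay above every other eye, beside 0.0354% of all genes, a share at which few or none would. Itprid2, whose values are given above, came nearest. Those that followed, picked after their values had been seen, are given as values. Fam115c was at 34.04, 29.2 and 36.4 CPM in eyes 6, 7 and 44, against a median of 17.3 CPM, with 3 other eyes above the lowest of them. Mxd1, a transcriptional repressor of the MYC network, was at 241, 280 and 304 CPM against a median of 191 CPM, also with 3 other eyes above. Lima1, a protein of the actin cytoskeleton, was at 157, 213 and 168 CPM against 123 CPM. The adhesion protein gene Tenm2 was at 76.3, 81.4 and 69.4 CPM against 39.8 CPM. Smim24, with as many other eyes above as Tenm2, was at 12.5, 13.3 and 15.1 CPM against 8.45 CPM. In the 48 other eyes the slopes of Fam115c (-0.54, limma adjusted p = 0.00959) and Tenm2 (-0.44, limma adjusted p = 0.0253) on the crystallin level were negative and passed. Those of Mxd1, Lima1 and Smim24 did not pass (limma adjusted p = 0.181, 0.131 and 0.649).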
